A study of Mus musculus with 13 samples.

Results

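The genes described here are 39 genes of oxidative stress defence and of the NRF2 antioxidant response, read from RNA-Seq libraries of mouse midbrain in which 49315 genes were counted. They were taken as a fixed list of gene symbols, matched to Ensembl gene identifiers, and the rule uses no measured value. All 39 genes had 1 identifier each and all 39 passed the filter on low counts, which kept 19360 genes that reached 10 counts in 3 or more libraries. The 13 libraries came from the midbrains of 13 male mice, all carrying floxed Ripk3 (Ripk3fl/fl), in 4 groups of genotype and treatment. Mice labelled Aldh1l1Cre+ (Cre+) lose Ripk3 in astrocytes through an inducible recombinase under the astrocyte promoter Aldh1l1, and littermates labelled Aldh1l1Cre- (Cre-) lack the recombinase. Every mouse of both genotypes received tamoxifen at 60 mg/kg for 5 days. The mice then received 5 daily injections of saline or of MPTP at 20 mg/kg, a toxin that kills dopaminergic neurons, and tissue was collected 3 days after the last injection. Saline was given to 3 mice of each genotype (Cre- Saline and Cre+ Saline). MPTP was given to 3 Cre- mice and 4 Cre+ mice. The mice were 8 to 12 weeks old. Because whole tissue was sequenced, fewer cells of a type and less RNA per cell cannot be told apart in any value below.

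NRF2, encoded by Nfe2l2, is a transcription factor held in the cytoplasm and marked for degradation by KEAP1. When oxidants or electrophiles modify KEAP1, NRF2 enters the nucleus, pairs with small MAF proteins and binds antioxidant response elements near genes for glutathione synthesis, thioredoxin reduction, quinone detoxification and heme breakdown. In brain this response is known best from astrocytes, which supply neighbouring neurons with precursors of glutathione. The NADPH oxidase of phagocytes is the counterpart that makes superoxide, and its catalytic chain CYBB, its partner CYBA and its cytosolic organizer NCF1 are best known from microglia, macrophages and neutrophils.

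Promoter windows of 33 of the 39 genes were found among RefSeq promoters of GRCm38.p6, each covering 250 bases before to 50 bases after a transcript start. Gclc, Gsr, Gsta4, Hmox1, Prdx6 and Sod3 had no entry. The core of the antioxidant response element, TGACNNNGC, was searched on both strands of these windows. It was present for 9 of the 33 genes (27.3%), against 14% of 27025 genes with a window. The 9 genes were G6pdx, Gclm, Gstm5, Nfe2l2, Pgd, Prdx1, Sod1, Srxn1 and Txnrd1. A match is a description of letters and not of binding. The matches before the start of Nfe2l2 itself and of 3 known NRF2 targets are shown first, with the core in capitals. They show what such an element looks like in genes that did not pass the edgeR test with all libraries in any comparison below. They lie at chr2:75704875-75704913 on the minus strand, chr3:122245403-122245451 on the plus strand, chr10:82859094-82859142 on the plus strand and chr4:116685446-116685494 on the plus strand.
Nfe2l2: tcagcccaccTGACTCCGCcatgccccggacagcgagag
Gclm: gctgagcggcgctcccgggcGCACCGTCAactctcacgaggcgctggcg
Txnrd1: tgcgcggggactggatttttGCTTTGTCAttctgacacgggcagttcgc
Prdx1: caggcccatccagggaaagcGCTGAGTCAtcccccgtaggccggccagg
In Nfe2l2 the core reads in the direction of the gene, and in the other 3 it reads on the opposite strand.

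The 150 bases before the start of Cybb (chrX:9469325-9469474, minus strand) and of Ncf1 (chr5:134229626-134229775, minus strand) are shown because these 2 genes had the largest log2 fold changes of the 39 with MPTP in Cre- mice. These windows were cut at RefSeq transcript starts, and that of Cybb lies inside the span that GENCODE gives the gene, which begins further upstream at 9487771. The windows held 0 matches to the core on either strand, which says only that these letters are not in this stretch.
Cybb: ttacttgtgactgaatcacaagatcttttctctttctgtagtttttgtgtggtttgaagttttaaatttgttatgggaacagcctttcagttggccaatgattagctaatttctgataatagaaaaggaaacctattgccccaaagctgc
Ncf1: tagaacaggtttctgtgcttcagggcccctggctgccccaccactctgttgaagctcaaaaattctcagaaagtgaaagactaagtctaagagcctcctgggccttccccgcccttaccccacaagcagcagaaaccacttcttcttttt

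The libraries held 11489150 to 29397278 assigned counts. Levels are given as CPM, counts scaled to the size of the library with TMM factors. The targeted gene Ripk3 had 4 to 11 counts in the 6 Saline libraries, 6, 18 and 40 in the Cre- MPTP libraries and 4 to 19 in the 4 Cre+ MPTP libraries, so these counts could not check single genotypes. Cre- MPTP replicate 1 stood apart from the other 12 libraries, with the lowest total, 21101 genes with a count (25432 to 27186 in the others) and 1.12% of its counts from mitochondrial genes (3.55% to 6.06% in the others). This bears on nearly every gene described here. Replicate 1 held the highest value of the 13 libraries for 19 of the 39 genes and the lowest for 16, whereas each of the other 12 libraries held the highest or lowest for 0 to 9. Over all genes tested, replicate 1 was the highest or lowest library for 75.7%. The 19 genes that were highest in it had a median transcript GC content of 54.4%, and the 16 that were lowest had 49.8%. Over the 39 genes, Pearson's r between GC content and the log2 ratio of replicate 1 to the mean of the other 2 Cre- MPTP libraries was 0.59, and over 18346 genes it was 0.58, as a description across genes of the same 3 libraries. The part of GC content in the results was not tested, and many results below that rest on replicate 1 are given with and without it.

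**Figure D1:**
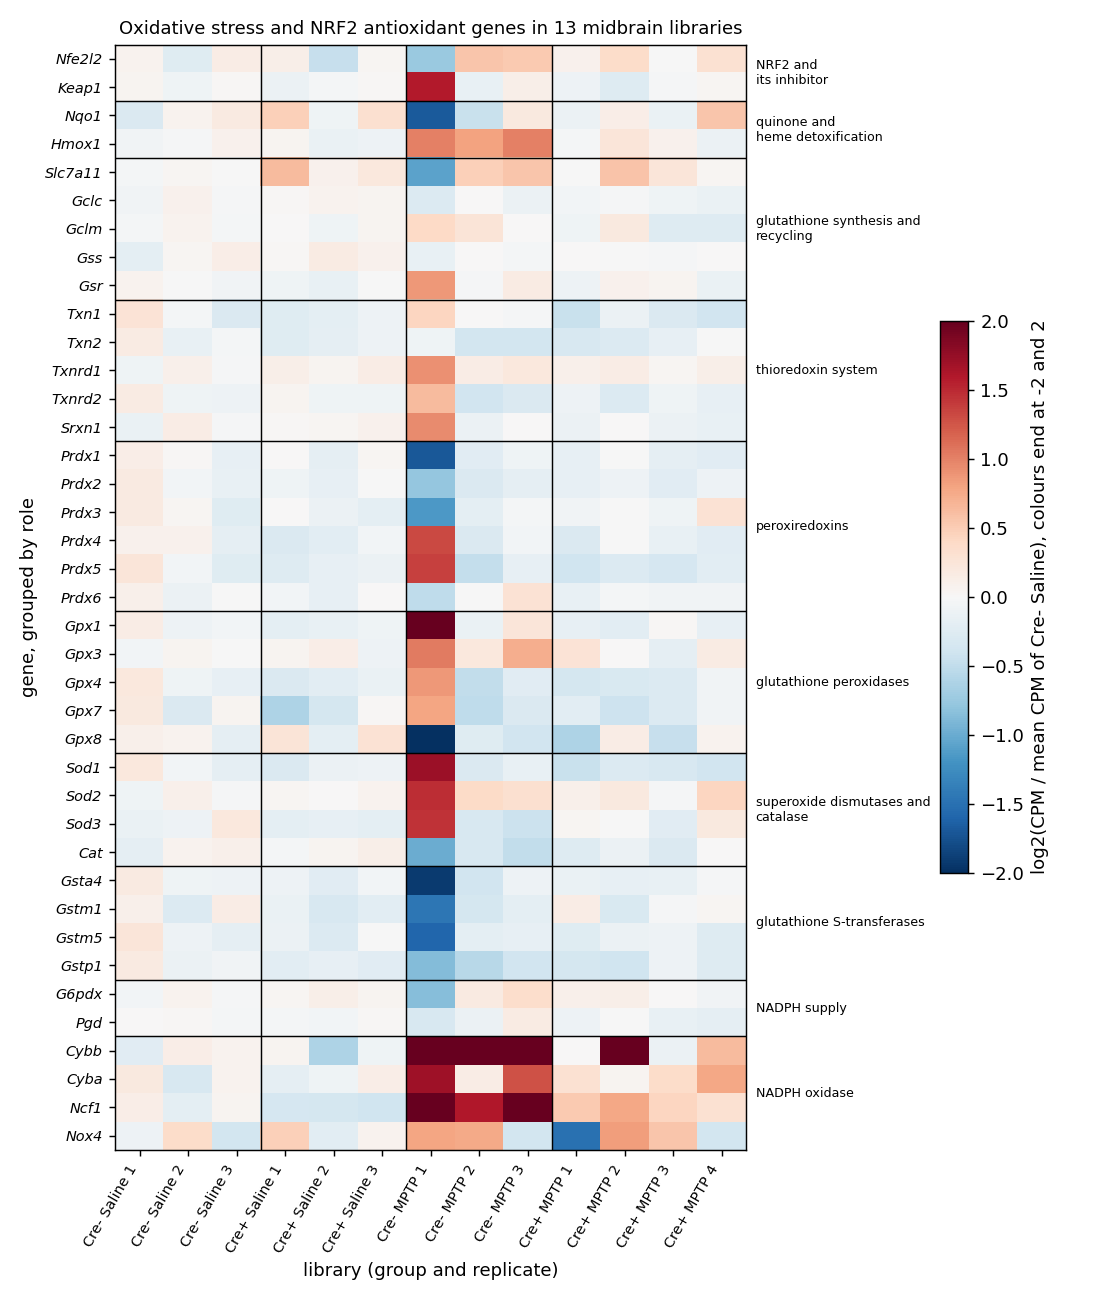
Heat map of 39 genes (rows, grouped by role) in 13 libraries (columns, grouped by genotype and treatment). Colour is log2 of CPM over the mean CPM of Cre- Saline, with the scale ending at -2 and 2. The column of Cre- MPTP replicate 1 holds the highest or lowest value for 35 of the 39 genes, and Hmox1, Cybb and Ncf1 are high in all 3 Cre- MPTP columns.

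The tissue label was checked with marker genes. The summed CPM of 7 dopaminergic markers was 342 to 603 over the 13 libraries, and none of the 7 passed the test in any comparison. The summed level of 6 astrocyte markers was 2170 to 2709 in Cre- Saline, 3852 to 4387 in Cre- MPTP and 2673 to 3119 in Cre+ MPTP, and 2 of the 6 rose with MPTP in Cre- mice. The 5 oligodendrocyte markers summed to 10420 to 13760 CPM in Cre- Saline and 7059 to 9559 in Cre- MPTP, and 1 of the 5 fell. The 5 meningeal fibroblast markers summed to 96.7 to 118.8 CPM in Cre- Saline and 126.5 to 158.4 in Cre- MPTP, and 1 of the 5 rose. The 6 microglia markers summed to 209 to 241 CPM in Cre- Saline and 149.9 to 216 in Cre- MPTP. The 6 neutrophil markers summed to 3.71 to 4.56 CPM in Cre- Saline, 3.50 to 6.21 in Cre+ Saline, 13.3 to 66.2 in Cre- MPTP and 5.81 to 7.94 in Cre+ MPTP. Of these 6 markers, 5 passed the filter, and 4 of the 5 rose with MPTP in Cre- mice. The same number were lower in the MPTP mice with Cre than in those without it. In other libraries, 6 striated muscle markers summed to 6334 CPM in Cre+ MPTP replicate 4 (11.7 to 147 elsewhere), and 5 pituitary markers to 610.3 and 448.5 CPM in Cre+ Saline replicates 1 and 3 (9.37 to 83.6 elsewhere). The part of these cells and tissues in the results was not tested.

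Levels of different genes were compared as CPM per kb of exon, in the Cre- Saline libraries. The abundant genes were enzymes that remove superoxide, hydrogen peroxide and electrophiles. Sod1, the cytosolic copper-zinc superoxide dismutase, was the most abundant at 277 ± 40.0 CPM per kb (SD, n = 3). Gstp1, a glutathione S-transferase that conjugates electrophiles, followed at 163 CPM per kb, and Gpx4, the glutathione peroxidase that reduces lipid hydroperoxides, at 158. Prdx5, a thioredoxin peroxidase, had 127 CPM per kb. In all, 9 of the 39 genes were over 50 CPM per kb, 14 lay between 10 and 50, and 16 were under 10. Of the regulators, Keap1 had 16.3 CPM per kb and Nfe2l2 had 5.17. The NRF2 targets were spread over the order, with Prdx1 at 36.5, Txnrd1 at 24.6 and Gclm at 12.6. Further down, Nqo1 had 4.26, the cystine transporter Slc7a11 had 3.25 and Hmox1 had 2.98. Of the NADPH oxidase genes 3 were lower still, with Ncf1 at 1.98, Cybb at 0.215 and Nox4 at 0.111 CPM per kb, while Cyba, at 6.03, was above Nfe2l2 and below Keap1. Of the 38 pairs of neighbours in this order, 26 had libraries whose ranges overlapped. Both genes of a pair were measured in the same libraries, and their order within each library was not compared.

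**Figure D2:**
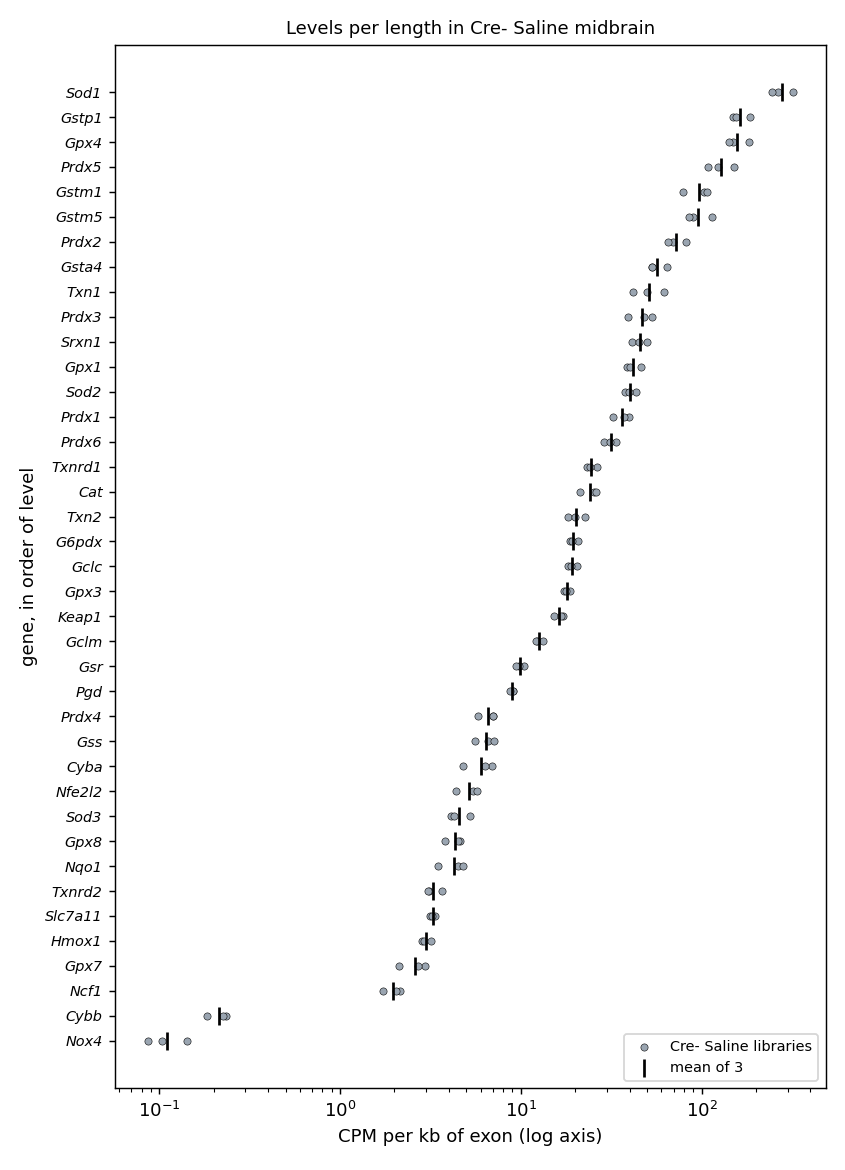
Level of each of the 39 genes in Cre- Saline midbrain, in CPM per kb of exon on a log axis, ordered from lowest to highest. Points are the 3 libraries and the bar is their mean. Sod1 is highest at 277 CPM per kb, and Cybb and Nox4 are the only 2 genes under 1.

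The first comparison was the response to MPTP in mice that keep Ripk3, Cre- MPTP against Cre- Saline. In it 3 of the 39 genes rose and 0 fell. The genes that rose were Hmox1, which breaks heme down to carbon monoxide, iron and biliverdin, and the phagocyte oxidase genes Cybb and Ncf1. Of all genes tested, 3.18% were called, 2.23% higher and 0.956% lower. The remaining 36 genes did not pass, and 12 of the 39 had an unadjusted p under 0.05, against 15% of all genes tested. The median log2 fold change of the 39 genes was 0.16, with 23 above 0, where 52.4% of all genes tested were above 0. The 2 groups did not overlap for 11 of the 39 genes, against 15.1% of all genes tested: Hmox1, Txnrd1, Gpx3, Sod2, Cybb and Ncf1 were higher in every Cre- MPTP library (7.11% of all genes), and Prdx2, Gpx8, Cat, Gsta4 and Gstp1 were lower in every one (8.02%). Without Cre- MPTP replicate 1, 5 genes were called, where 9.38% of all genes tested were called: the same 3 higher and Cat and Gstp1 lower, and the median log2 fold change was -0.04. With all libraries, DESeq2 called 8 of the 39 genes (5.87% of all genes), adding Cyba, Gpx3 and Sod2 as higher and Cat and Gstp1 as lower to the 3. Limma voom with quality weights called 9 (13.6% of all genes), adding Nfe2l2, Slc7a11, Cyba and Gpx3 as higher and Cat and Gstp1 as lower.

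Hmox1 (ENSMUSG00000005413, chromosome 8 of GRCm38, 75093621 to 75100589) had 5.0, 5.12 and 5.55 CPM in Cre- Saline and 10.5, 9.15 and 10.5 CPM in Cre- MPTP. The 3 treated libraries lay close together and all above the controls, and replicates 1 and 3 were almost equal. The log2 fold change was 0.94 (SE 0.17, edgeR quasi-likelihood adjusted p = 0.00665), and 0.92 without replicate 1. With only the libraries of these 2 groups the log2 fold change was again 0.94 but the call ended (edgeR adjusted p = 0.196), while DESeq2 on the same libraries kept it (0.96, adjusted p = 0.00255). In absolute terms the gene stayed low, with 97 to 318 counts per library. For the gene of NRF2, no change passed the edgeR test. Nfe2l2 had 20.6, 16.6 and 21.8 CPM in Cre- Saline and 11.7, 28.8 and 28.2 in Cre- MPTP, where replicate 1 was the lowest of all 13 libraries and the other 2 the highest. Its log2 fold change was 0.23 (SE 0.29, edgeR adjusted p = 0.718), and 0.54 (adjusted p = 0.0639) without replicate 1. Limma voom, which gives weights to libraries, called it higher (0.67, adjusted p = 0.00513). Keap1 had 80.0, 72.0 and 78.0 CPM in Cre- Saline and 230.4, 69.3 and 83.1 in Cre- MPTP. Its log2 difference of 0.73 (SE 0.34, edgeR adjusted p = 0.336) rested on replicate 1 and was -0.00 without it. Nqo1, a quinone reductase and a standard readout of NRF2, had 5.40, 6.95 and 7.49 CPM in Cre- Saline and 2.06, 4.87 and 7.56 in Cre- MPTP. These groups overlapped, and the log2 fold change was -0.42 (SE 0.36, edgeR adjusted p = 0.586) and -0.08 without replicate 1.

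None of the 5 genes of glutathione synthesis and recycling passed the edgeR test. Slc7a11, which imports cystine for glutathione, had 44.0, 46.7 and 45.1 CPM in Cre- Saline and 21.6, 63.0 and 66.7 in Cre- MPTP. Replicate 1 lay below the controls and the other 2 above them, so that the log2 fold change was 0.16 (SE 0.33, edgeR adjusted p = 0.834) with replicate 1 and 0.52 (adjusted p = 0.0717) without it. Limma voom called it higher (0.48, adjusted p = 0.0412). The catalytic subunit of glutamate-cysteine ligase, Gclc, had 69.1, 77.0 and 71.8 CPM in Cre- Saline and 60.3, 73.1 and 66.9 in Cre- MPTP. Its modifier subunit Gclm had 77.1, 83.5 and 76.7 CPM in Cre- Saline and 104.6, 95.0 and 79.6 in Cre- MPTP. Both pairs of groups overlapped, and the log2 fold changes were -0.12 (SE 0.11) for Gclc and 0.23 (SE 0.15) for Gclm, with adjusted p of 0.612 and 0.457 (edgeR). Glutathione synthetase Gss was at -0.06 and glutathione reductase Gsr at 0.38 (edgeR adjusted p = 0.368), the latter at 0.08 without replicate 1.

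In the thioredoxin system, 0 of 5 genes passed. Sulfiredoxin Srxn1, which repairs overoxidized peroxiredoxins, had 116, 141 and 127 CPM in Cre- Saline and 246, 119 and 129 in Cre- MPTP. Only replicate 1 lay above the controls, and the log2 difference of 0.36 (SE 0.22, edgeR adjusted p = 0.447) was -0.04 without it. Thioredoxin reductase 1, Txnrd1, was one of the 11 genes whose groups did not overlap, at 79.3 to 90.1 CPM in Cre- Saline and 93.0 to 159 in Cre- MPTP (log2 fold change 0.47, edgeR adjusted p = 0.242). It was at 0.19 (adjusted p = 0.141) without replicate 1. Cytosolic thioredoxin Txn1 was at 0.15, mitochondrial Txn2 at -0.27 and mitochondrial thioredoxin reductase Txnrd2 at 0.05 on the log2 scale. Without replicate 1 these were at -0.01, -0.37 (edgeR adjusted p = 0.0581) and -0.33.

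The 6 peroxiredoxins, which reduce hydrogen peroxide with the help of thioredoxin or glutathione, split in direction, and the split followed replicate 1. Prdx4, of the endoplasmic reticulum, was at 0.50 and Prdx5 at 0.48 on the log2 scale, whereas Prdx1 was at -0.51, Prdx2 at -0.39, mitochondrial Prdx3 at -0.38 and Prdx6 at -0.03. In the libraries, Prdx5 had 702 CPM in replicate 1 and 195 and 242 in the other 2, and Prdx1 had 34.4 in replicate 1 and 95.2 and 104.5 in the other 2. Without replicate 1 the 6 values ran from -0.31 to 0.15, and none passed the test with it or without it (lowest adjusted p 0.277 and 0.16, edgeR).

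Among the glutathione peroxidases, Gpx1, Gpx4 and Gpx7 also followed replicate 1, while Gpx3 was higher and Gpx8 lower in every Cre- MPTP library. Gpx1, the main cytosolic glutathione peroxidase, had 66.6, 56.0 and 58.1 CPM in Cre- Saline and 286, 55.2 and 71.5 in Cre- MPTP. Replicate 1 was far above every other library, and of the other 2 replicate 2 lay below the controls and replicate 3 above them. The log2 difference of 1.19 (SE 0.45, edgeR adjusted p = 0.25) was 0.08 without replicate 1, the largest shift of the 39 genes. Gpx3, the secreted form, was at 37.7 to 66.8 CPM in the 3 Cre- MPTP libraries and at 31.4 to 34.1 CPM in the controls, which on the log2 scale was a difference of 0.69 (SE 0.19, edgeR adjusted p = 0.0852) and of 0.49 (adjusted p = 0.0541) without replicate 1. Gpx4 was at 0.18, Gpx7 at 0.07 and Gpx8 at -0.66, and without replicate 1 these were -0.35, -0.39 and -0.31. None of the 5 passed by edgeR.

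Of the superoxide dismutases, Sod2, the mitochondrial manganese enzyme, had 145, 166 and 153 CPM in Cre- Saline and 430, 201 and 192 in Cre- MPTP. All 3 treated libraries lay above the controls. The log2 fold change was 0.83 (SE 0.26, edgeR adjusted p = 0.137), and 0.35 (SE 0.11, adjusted p = 0.0636) without replicate 1. Sod1 had 158 to 208 CPM in Cre- Saline and 588, 146 and 162 in Cre- MPTP, so its log2 fold change was 0.74 with replicate 1 and -0.21 without it. The extracellular enzyme Sod3 went from 0.49 to -0.37 in the same way. Catalase, Cat, which breaks down hydrogen peroxide in peroxisomes, had 55.7, 66.5 and 67.9 CPM in Cre- Saline and 31.8, 50.7 and 44.8 in Cre- MPTP. Every treated library lay below every control, which on the log2 scale was a difference of -0.57 (SE 0.17, edgeR adjusted p = 0.11) that did not pass. It passed without replicate 1 (-0.40, SE 0.11, edgeR adjusted p = 0.0399) and, with all libraries, by DESeq2 (-0.55, adjusted p = 0.0221) and limma voom (-0.49, adjusted p = 0.0018).

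The 4 glutathione S-transferases were all below 0. Gstp1 had 139.9, 113.5 and 118 CPM in Cre- Saline and 68.1, 84.5 and 95.2 in Cre- MPTP, with no overlap and a log2 difference of -0.58 (SE 0.15, edgeR adjusted p = 0.0543). Without replicate 1 it fell by 0.46 (SE 0.11, edgeR adjusted p = 0.0205), and DESeq2 and limma voom called it lower with all libraries. Gsta4, which conjugates the lipid peroxidation product hydroxynonenal, was at -0.60, Gstm1 at -0.56 and Gstm5 at -0.51, and none of these passed. Without replicate 1 they were at -0.23, -0.27 and -0.18. These genes belong to families of close copies that share sequence, so their counts are less certain than those of single-copy genes. The 2 enzymes that supply NADPH through the pentose phosphate pathway, G6pdx and Pgd, were at -0.02 and -0.08. Without replicate 1 they were at 0.27 (edgeR adjusted p = 0.0616) and 0.03. G6pdx had 57.9, 63.7 and 59.4 CPM in Cre- Saline and 33.5, 68.3 and 76.7 in Cre- MPTP.

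Of the NADPH oxidase genes, Cybb and Ncf1 had the largest log2 fold changes of the 39 genes. Cybb (ENSMUSG00000015340, chromosome X, 9435252 to 9487771) had 1.07, 1.37 and 1.31 CPM in Cre- Saline and 9.65, 13.2 and 9.67 in Cre- MPTP. The 3 treated libraries were close to each other and far above the controls, which had 27 to 36 counts each. The log2 fold change was 3.11 (SE 0.56, edgeR adjusted p = 0.00828), and 3.19 without replicate 1. The call ended without Cre- Saline replicate 1 (3.01, edgeR adjusted p = 0.0556). Ncf1 (ENSMUSG00000015950, chromosome 5, 134220053 to 134229625) had 7.90, 6.33 and 7.49 CPM in Cre- Saline and 49.1, 21.9 and 30.1 in Cre- MPTP. Its log2 fold change was 2.21 (SE 0.26, edgeR adjusted p = 0.000965), the lowest adjusted p of the 39 genes, and 1.85 (adjusted p = 4.17e-05) without replicate 1. It overlaps Gtf2ird2 on the other strand, and the strand setting of the counting was not given in the sources used here.

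Cyba, whose protein pairs with that of Cybb in the membrane, had 7.18, 5.0 and 6.61 CPM in Cre- Saline and 20.3, 6.97 and 15.2 in Cre- MPTP. Replicate 2 lay within the range of the controls, and the log2 difference of 1.16 (SE 0.33, edgeR adjusted p = 0.092) did not pass, though DESeq2 and limma voom called it higher. Without replicate 1 the difference was 0.83 (edgeR adjusted p = 0.0915). Nox4, an oxidase that is active without cytosolic partners, stayed at 0.73 to 1.63 CPM in both groups with 15 to 40 counts, too few for a precise value (log2 fold change 0.45, SE 0.52). The summed neutrophil markers also rose with MPTP in Cre- mice. Among the treated libraries the markers were highest in Cre- MPTP replicate 3 (66.2 CPM), then replicate 1 (15.9 CPM) and replicate 2 (13.3 CPM). Cybb was highest in replicate 2, and Ncf1 was highest in replicate 1. Ncf1, Cyba and the oxidase gene Rac2 were lowest in replicate 2, as the markers were. Another oxidase gene, Ncf4, had the same full order as the markers (4.69, 4.01 and 1.94 CPM in replicates 3, 1 and 2). Of the 6 microglia markers 1 was lower and 0 were higher, and of the 6 monocyte and macrophage markers 1 was higher and 1 lower. The part of these cells in the rise of Cybb and Ncf1 was not tested.

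**Figure D3:**
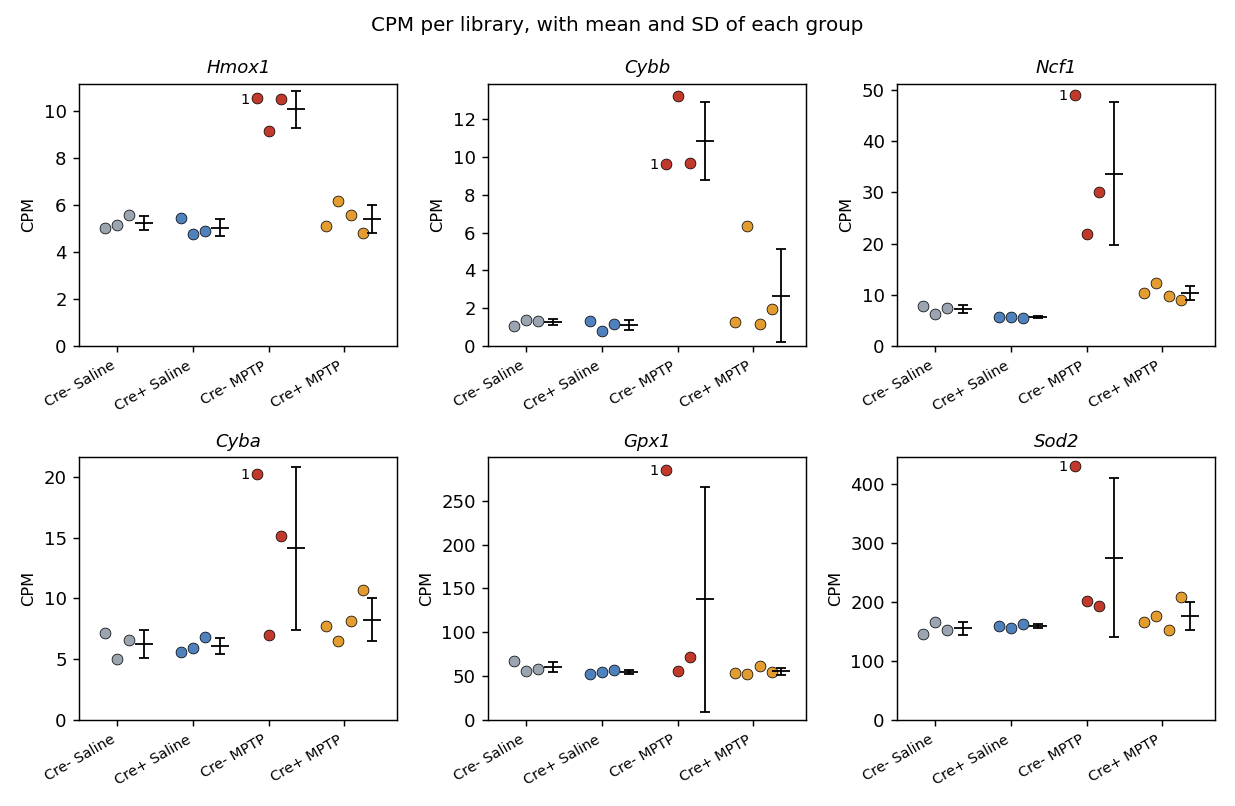
CPM of 6 genes in each library by group, on linear axes from 0, with the mean and SD of each group beside the points (n = 3, and 4 in Cre+ MPTP); the digit 1 marks Cre- MPTP replicate 1. For Hmox1, Cybb and Ncf1 all 3 Cre- MPTP libraries lie above every other library, while for Gpx1 replicate 1 stands far above the rest at 286 CPM and replicate 3, at 71.5 CPM, lies just above the other groups.

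**Figure D4:**
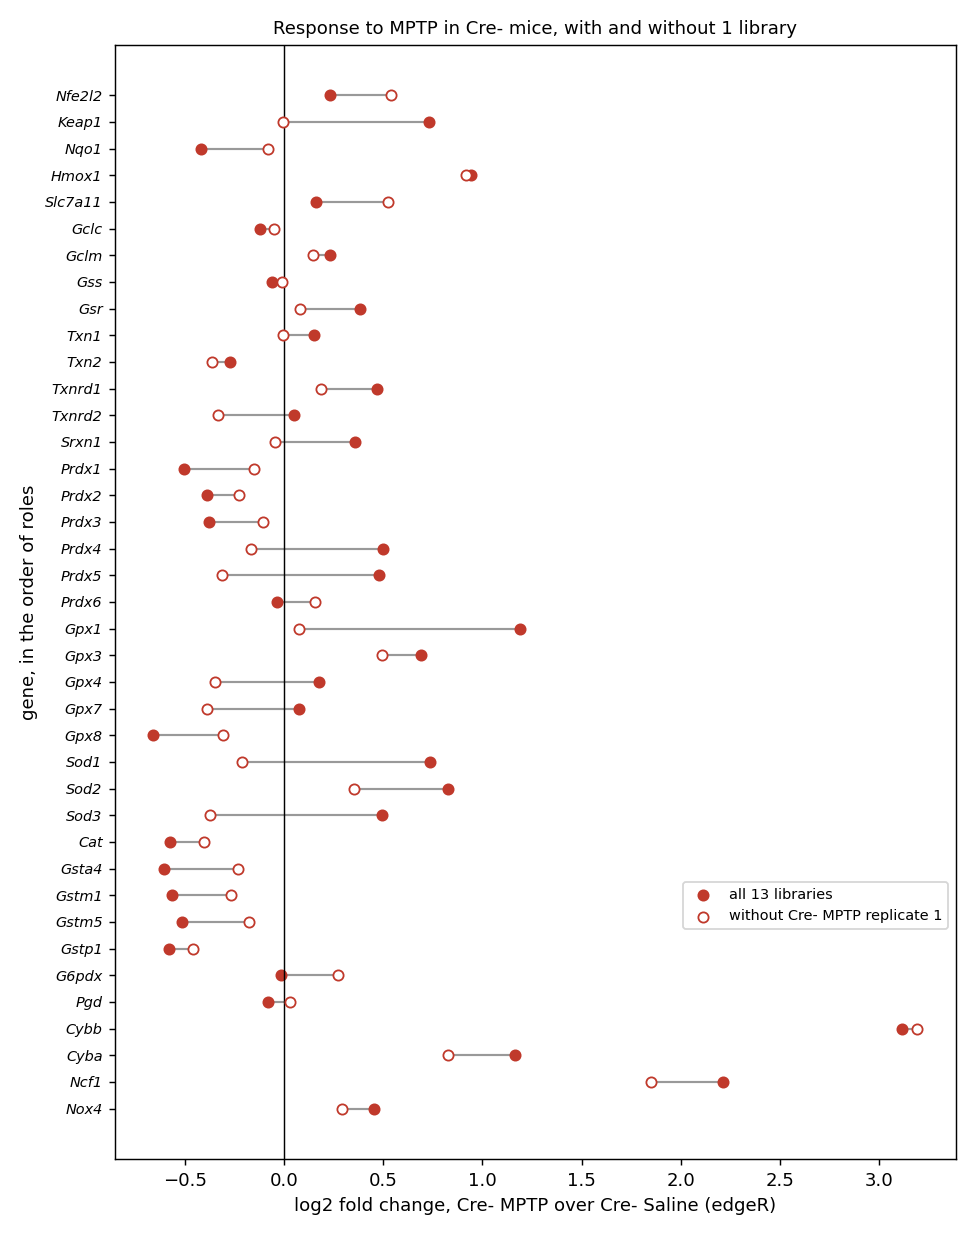
Log2 fold change of each of the 39 genes in Cre- MPTP over Cre- Saline, fitted with all 13 libraries (filled) and without Cre- MPTP replicate 1 (open). For 30 of the 39 genes the open point is nearer to 0, for 13 it lies on the other side of 0, and for Hmox1 and Cybb it hardly moves.

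In mice without astrocytic Ripk3, 0 of the 39 genes passed the test for Cre+ MPTP against Cre+ Saline with edgeR, and 0% of all genes tested did. An unadjusted p under 0.05 was reached by 2 of the 39 genes, Cybb and Ncf1, against 3.47% of all genes. DESeq2 on all libraries called 0 of the 39, and DESeq2 on the 2 groups and limma voom each called 1, Ncf1. Of all genes, the alternatives other than leaving out 1 library called 0 to 320. The median log2 fold change of the 39 genes was -0.03, with 16 above 0, where 50.9% of all genes tested were above 0. Ncf1 had 5.76, 5.65 and 5.48 CPM in Cre+ Saline and 10.4, 12.4, 9.76 and 8.97 in Cre+ MPTP, so that every treated mouse lay above every control (log2 fold change 0.88, SE 0.24, edgeR adjusted p = 0.625). Cybb had 1.30, 0.814 and 1.18 CPM in Cre+ Saline and 1.26, 6.32, 1.15 and 1.95 in Cre+ MPTP. Its log2 fold change of 1.26 (SE 0.53) came from replicate 2 and was 0.40 without that library.

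Hmox1 had 5.44, 4.76 and 4.87 CPM in Cre+ Saline and 5.10, 6.15, 5.55 and 4.81 in Cre+ MPTP. These groups overlapped in part, with Cre+ MPTP replicates 2 and 3 above every Cre+ Saline library. On the log2 scale the difference was 0.10 (SE 0.15). Cyba had 5.56, 5.90 and 6.85 CPM in Cre+ Saline and 7.72, 6.49, 8.12 and 10.7 in Cre+ MPTP, overlapping only through replicate 2 (log2 fold change 0.44, SE 0.31). Sod2 was at 0.14, Gpx1 at 0.02 and Nfe2l2 at 0.28, with standard errors of 0.24, 0.42 and 0.27. Besides Ncf1, the groups did not overlap for Gclc, Gss and Srxn1, which were lower in every Cre+ MPTP library by small amounts (log2 fold changes -0.12, -0.10 and -0.15), and 9.66% of all genes tested had groups that did not overlap (5.06% higher and 4.61% lower). For Gclc the values were 73.7, 76.2 and 75.1 CPM in Cre+ Saline and 69.8, 71.1, 68.5 and 66.2 in Cre+ MPTP, a narrow range in both groups.

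**Figure D5:**
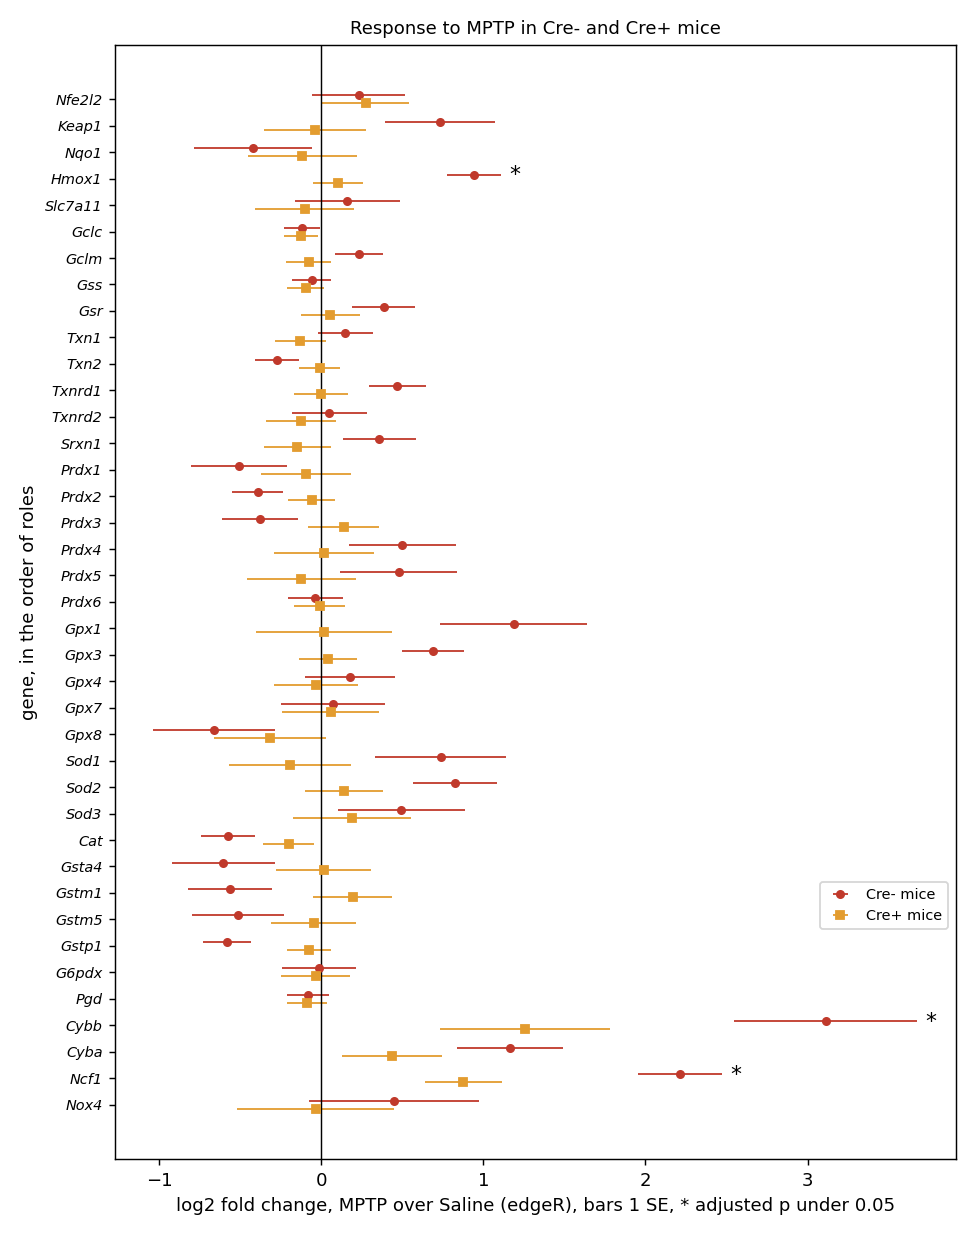
Log2 fold change of each of the 39 genes with MPTP in Cre- mice (circles) and in Cre+ mice (squares), with bars of 1 SE from edgeR; an asterisk marks an adjusted p under 0.05. Hmox1, Cybb and Ncf1 carry an asterisk in Cre- mice and no gene does in Cre+ mice.

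The genotypes were then compared under MPTP. In Cre+ MPTP against Cre- MPTP, 2 of the 39 genes were lower, Hmox1 and Ncf1, and 0 were higher, where 1.54% of all genes tested were called (0.517% higher and 1.03% lower). This comparison shares the Cre- MPTP mice with the first. Hmox1 was at 4.81 to 6.15 CPM in the 4 Cre+ MPTP libraries and at 9.15 to 10.5 in the 3 Cre- MPTP libraries, with no overlap (log2 fold change -0.90, SE 0.15, edgeR adjusted p = 0.0157, and -0.87 without Cre- MPTP replicate 1). The adjusted p of Hmox1 passed 0.05 when Cre+ MPTP replicate 1, 3 or 4 was left out (edgeR 0.071, 0.0587 and 0.0521), and was 0.0567 without the filter on low counts. Ncf1 was at 8.97 to 12.4 CPM in Cre+ MPTP and at 21.9 to 49.1 in Cre- MPTP, again with no overlap (log2 fold change -1.70, SE 0.23, edgeR adjusted p = 0.0072, and -1.34 without Cre- MPTP replicate 1). With the libraries of the 2 groups alone the log2 fold changes were -0.91 and -1.72 and both calls ended by edgeR (adjusted p = 0.246 for Hmox1 and 0.2 for Ncf1), while DESeq2 on the same libraries kept both (adjusted p = 0.000378 and 9.05e-05).

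Cybb also had groups that did not overlap, at 1.15 to 6.32 CPM against 9.65 to 13.2 CPM, but its adjusted p was 0.0633 (log2 fold change -2.04, SE 0.49, edgeR). By edgeR it passed when replicate 1 or 2 of Cre- MPTP was left out (-2.13 and -1.87), and when Cre+ MPTP replicate 2 was (-2.89, edgeR adjusted p = 0.000707). With all libraries, DESeq2 (adjusted p = 0.00187), limma voom (adjusted p = 1.63e-05) and edgeR without the filter on low counts (adjusted p = 0.0357) called Cybb lower. It did not pass by edgeR with DESeq2 size factors, filterByExpr, a replicate block or the 2 groups alone. Txn1 was lower in every Cre+ MPTP library (39.4 to 49.5 against 52.8 to 72.2 CPM) and Cat higher in every one (52.1 to 63.5 against 31.8 to 50.7 CPM), and neither passed (adjusted p = 0.195 and 0.207, edgeR). In all, 5 of the 39 genes had groups that did not overlap, against 11.3% of all genes tested (6.25% higher and 5.07% lower). The log2 fold change was above 0 for 15 of the 39 genes and for 52.4% of all genes tested.

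Many of the other values in this comparison again followed replicate 1 of Cre- MPTP. An unadjusted p under 0.05 was reached by 18 of the 39 genes, against 19% of all genes tested, and by 10 without replicate 1. Gpx1 was at 53.9, 52.1, 61.1 and 54.0 CPM in Cre+ MPTP, and its log2 difference of -1.31 (SE 0.42, edgeR adjusted p = 0.171) was -0.20 without that library. Keap1, at 64.0 to 78.4 CPM in Cre+ MPTP, went from -0.82 to -0.08, and Sod1, at 131 to 148 CPM, from -1.09 to -0.15. The median size of the log2 fold change over the 39 genes was 0.418 with replicate 1 and 0.174 without it. When Cre- MPTP replicate 2 was left out, so that replicate 1 was 1 of 2 libraries, 9 of the 39 genes were called, Keap1, Sod1, Prdx5 and Gpx1 among them, where 9.51% of all genes tested were.

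The genotypes were also compared without MPTP. In Cre+ Saline against Cre- Saline, 0 of the 39 genes passed with edgeR and 0 had an unadjusted p under 0.05, against 0% and 0.909% of all genes tested, and DESeq2 and limma voom also called 0. The 3 largest log2 fold changes were -0.36 for Ncf1 (SE 0.25), 0.33 for Slc7a11 (SE 0.33) and -0.29 for Gpx7, a peroxidase of the endoplasmic reticulum (SE 0.32). Ncf1 was lower in all 3 Cre+ Saline mice (5.48 to 5.76 against 6.33 to 7.90 CPM). Slc7a11 was higher in all 3, at 70.1, 48.0 and 52.5 CPM against 44.0 to 46.7 CPM, with replicate 1 the farthest, and its log2 fold change was 0.16 without that library. Gpx7 had 2.17, 2.60 and 3.39 CPM in Cre+ Saline and 3.81, 2.73 and 3.47 in Cre- Saline, with overlap. Sod3 and Gstp1 were lower in every Cre+ library, which brought the genes without overlap to 4, against 11.6% of all genes tested (5.91% higher and 5.71% lower). The log2 fold change was above 0 for 12 of the 39 genes and for 48.1% of all genes tested. Of the regulators and targets, Nfe2l2 had 21.2, 14.3 and 20.1 CPM in Cre+ Saline, Keap1 70.4, 74.5 and 77.8, Nqo1 9.23, 6.22 and 8.22, and Gclm 79.2, 74.6 and 81.9.

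Whether the response to MPTP differed between genotypes was tested with the interaction term. None of the 39 genes passed with edgeR (0 called, where 0.0103% of all genes tested were), and 5 had an unadjusted p under 0.05, against 5.76% of all genes tested. The term was above 0 for 13 of the 39 genes and for 49.7% of all genes tested. The terms with the largest size were -1.86 for Cybb (SE 0.74, adjusted p = 0.769), -1.34 for Ncf1 (SE 0.34, adjusted p = 0.268) and -1.17 for Gpx1 (SE 0.61, adjusted p = 0.795), all by edgeR. For Hmox1 it was -0.84 (SE 0.22, edgeR adjusted p = 0.285). Without Cre- MPTP replicate 1 the terms were -1.95 for Cybb, -0.97 for Ncf1 (adjusted p = 0.0609), -0.81 for Hmox1 (adjusted p = 0.0892) and -0.06 for Gpx1. DESeq2 called 2 of the 39 genes, Hmox1 and Ncf1, and limma voom called 3, Hmox1, Cybb and Ncf1, each with a smaller response in Cre+ mice. Of all genes, the alternatives other than leaving out 1 library called 0 to 689.

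Around the 39 genes, 76 other genes of the same biology were listed, of which 72 passed the filter. In Cre- MPTP against Cre- Saline, 5 of the 72 rose and 3 fell, beside 2.23% and 0.956% of all genes tested. The small MAF genes Maff and Mafk, partners of NRF2 at antioxidant response elements that also act with other factors, rose by log2 fold changes of 4.29 (SE 0.75) and 1.80 (SE 0.33), with adjusted p of 0.00647 and 0.00847 (edgeR). Maff had 2.18, 2.38 and 3.40 CPM in Cre- Saline and 114, 19.2 and 24.2 in Cre- MPTP, so that all treated libraries were far above the controls and replicate 1 was the highest. Mafk had 15.6 to 18.4 CPM in Cre- Saline and 98.95, 43.3 and 34.4 in Cre- MPTP, again highest in replicate 1. The fold changes given for Maff and Mafk, here and between the genotypes, include replicate 1. Ucp2, a mitochondrial carrier, rose by 1.66, and 2 further parts of the phagocyte oxidase machinery rose as well, Ncf4 by 2.14 and Rac2 by 1.86. The genes that fell were the pentose phosphate enzyme Taldo1 (-0.53), the epoxide hydrolase Ephx1 (-0.89) and the glutathione S-transferase Gstm7 (-1.10).

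All 8 calls held without Cre- MPTP replicate 1, and 6 of them ended when another single library was left out. With edgeR on the libraries of the 2 groups alone all 8 ended (adjusted p = 0.0759 for Maff and 0.0691 for Ucp2) and 0.6% of all genes tested were called. DESeq2 on the same libraries called 7 of the 72. Taldo1 and Gstm7 were not among these 7 (DESeq2 adjusted p = 0.0937 and 0.0917). Of all genes, the alternatives other than leaving out 1 library called 110 to 2624. Leaving out Cre- Saline replicate 1 ended the calls of Mafk, Gstm7, Ncf4 and Rac2, leaving out Cre- Saline replicate 2 those of Taldo1, Ephx1, Gstm7, Ncf4 and Rac2, and leaving out Cre- Saline replicate 3 those of Taldo1, Ephx1, Gstm7 and Rac2. Without Cre- MPTP replicate 2 the call of Taldo1 ended, and without Cre- MPTP replicate 3 those of Gstm7 and Ncf4. In Cre+ MPTP against Cre- MPTP, Maff (-3.69), Mafk (-1.54) and Ucp2 (-1.29) were lower and 0 of the 72 were higher, beside 1.03% and 0.517% of all genes tested. These 3 calls ended with edgeR on the 2 groups alone, where 0 of all genes tested were called and DESeq2 called 4 of the 72. Here the alternatives other than leaving out 1 library called 0 to 1224 of all genes. Leaving out Cre+ MPTP replicate 1, 3 or 4 ended the calls of Maff and Mafk, and leaving out replicate 3 ended that of Ucp2. Maff was at 2.04 to 9.01 CPM in the Cre+ MPTP libraries and at 3.04 to 4.68 in Cre+ Saline, so these groups overlapped. In Cre+ MPTP against Cre+ Saline, Cre+ Saline against Cre- Saline and the interaction, 0 of the 72 passed with edgeR, and 4, 0 and 9 had an unadjusted p under 0.05, beside 3.47%, 0.909% and 5.76% of all genes tested. In the same order DESeq2 called 1, 0 and 3 of the 72, and limma voom 2, 0 and 7. Of all genes, the alternatives other than leaving out 1 library called at most 320, 19 and 689 in these comparisons.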

How the data were processed

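RNA from midbrain of 13 mice was sequenced by the authors as stranded total RNA (2 reads per fragment). Per the labels and the study's methods, reads were trimmed (Trimmomatic 0.36), aligned to GRCm38 (STAR 2.5.2b) and assigned to genes as unique hits (featureCounts, Subread 1.5.2). The authors deposited the raw counts of each gene and library. The authors' own tests used DESeq2.

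Symbols and positions were taken from GENCODE M21 by Ensembl identifier. Counts were tested with edgeR 4.0.16 in R 4.3.3 (TMM, 10 or more counts in 3 libraries, 1 term per group over all 13 libraries, quasi-likelihood test). Benjamini-Hochberg adjustment covered all 19360 genes, and genes under 0.05 were called. SE is the absolute log2 fold change over the square root of F. CPM per kb uses the exon length in the files. Totals of 11489150 to 29397278 counts limit genes with few counts.

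The 39 genes, the other lists and the alternatives were chosen with earlier results of these data known. Values per library are given for genes called in any comparison, the 6 largest changes in Cre- MPTP against Cre- Saline, the 3 largest in each other comparison, and Nfe2l2, Keap1, Nqo1, Hmox1, Gclc, Gclm, Slc7a11 and Srxn1. Of the other redox genes, those called are named. Cat, Gstp1 and further genes with values per library were chosen after their values were seen. Alternatives were DESeq2 1.42.0, limma 3.58.1 voom with quality weights, DESeq2 size factors, no filter or filterByExpr, the 2 groups alone, a replicate block, each library left out in turn, and Cre- MPTP replicate 1 and Cre+ MPTP replicate 4 left out together.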

Additional observations from a re-analysis of the deposited data

Results flagged for a closer look

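Cybb in Cre+ MPTP replicate 2, at 6.32 CPM, lay far above the other 3 libraries of its group (1.26, 1.15 and 1.95 CPM). The gap to the nearest of them was 0.847 of the group's range, past Dixon's critical value for 4 samples. It was the only one of the 39 genes with such a library in Cre+ MPTP, and chance alone flags about 1 in 20. Neutrophil markers summed to 7.94 CPM in that library, the highest of the 4, where the others had 5.81 to 6.75. Their part in the value was not tested. The groups of 3 were not tested in this way.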

How the results depend on the processing

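Of the 39 genes, 3 were called in Cre- MPTP against Cre- Saline, 8 with DESeq2 (5.87% of all genes), 9 with limma voom (13.6%), 8 with both Cre- MPTP replicate 1 and Cre+ MPTP replicate 4 left out (10%), against 3.18% of all genes in the report, and 2 to 7 with single libraries left out (7 without Cre- MPTP replicate 2, 5 without replicate 1 or 3). Of all genes, 311 to 1812 were called with single libraries left out, against 616 with all libraries. Ncf1 was called in all 15 alternatives, Hmox1 in 14 (not with the 2 groups alone, adjusted p = 0.196, edgeR) and Cybb in 14 (not without Cre- Saline replicate 1, adjusted p = 0.0556, edgeR). In Cre+ MPTP against Cre+ Saline, 1 gene was called with limma voom, with DESeq2 on the 2 groups and without both libraries, and 0 with any single library left out. Of all genes, at most 5 were called with a single library left out and at most 320 in the other alternatives. In Cre+ MPTP against Cre- MPTP, 2 became 5 with DESeq2 (4.31% of all genes, against 1.54%), 0 with edgeR on the 2 groups (0%), and 1 to 9 with single libraries left out (9 without Cre- MPTP replicate 2, where 9.51% of all genes were called, and 1 on leaving out Cre+ MPTP replicate 1, 3 or 4). In the interaction, 0 became 2 with DESeq2 (1.15% of all genes), 3 with limma voom (3.56%), and 0 to 1 with single libraries left out (1 without Cre+ MPTP replicate 2, Cybb). With single libraries left out, 41 to 1826 of all genes were called in Cre+ MPTP against Cre- MPTP and 0 to 199 in the interaction. The cause of these shifts was not tested.

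With a replicate block, 0 genes were called in Cre+ MPTP against Cre- MPTP (Ncf1 adjusted p = 0.0797, Hmox1 adjusted p = 0.129, edgeR) and 3 in Cre- MPTP against Cre- Saline. It also ended the calls of Maff, Mafk and Ucp2 between the genotypes (edgeR adjusted p = 0.141, 0.13 and 0.0851), and those of Taldo1 and Gstm7 with MPTP in Cre- mice (0.0747 and 0.113). The block was not used in the report, since mice with the same number are not stated to be paired. For deviations from group means, 18 same-number pairs of libraries had r of -0.179 to 0.184 and 45 other pairs -0.182 to 0.239. These correlations cannot show whether mice with the same number shared a litter or a batch.

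In Cre- MPTP against Cre- Saline the log2 fold change changed sign for 6 of the genes followed through every alternative (13 of all 39 did so without Cre- MPTP replicate 1). With single libraries left out, the values ran from -0.0046 to 1.0077 for Keap1, from -0.0876 to 0.5227 for Slc7a11, from -0.0432 to 0.5326 for Srxn1, from -0.2114 to 1.0411 for Sod1, from -0.3132 to 0.7695 for Prdx5 and from -0.3488 to 0.406 for Gpx4. The lowest was the value without Cre- MPTP replicate 1, except for Slc7a11, which was -0.0161 and -0.0876 without Cre- MPTP replicates 2 and 3. With limma voom and with both libraries left out, Srxn1 was -0.1163 and -0.0331, Sod1 was -0.1209 and -0.1997, Prdx5 was -0.214 and -0.3014, and Gpx4 was -0.2446 and -0.3371.

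With 3 or 4 mice a group, differences of the size seen for Nqo1, Gclc or Gclm were not resolved from 0. Whether reads of genes that overlap on the other strand (Gtf2ird2 for Ncf1, Gm20388 for Cyba) were kept apart was not tested.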
